A study of Saccharomyces cerevisiae with 6 samples.

Results

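The heat shock proteins and cytosolic chaperones of wine yeast were examined as 41 genes chosen by name: the cytosolic and ribosome-associated HSP70 proteins and their co-chaperones, HSP90 and its co-chaperones, the small heat shock proteins, HSP104 and HSP31, the 8 subunits of the cytosolic chaperonin, 5 mitochondrial chaperones and the regulator HSF1. All 41 were measured, each by 1 probe, among 6248 features (genes and unnamed probes). RNA came from fermentations of a synthetic grape must sampled at 66 g/l of released CO2, when 70% of the fermentation was done and the cells were in stationary phase. There were 3 cultures of wild type 59A, a haploid MATa derivative of the wine strain EC1118, and 3 of 59A PDR8-S288c, in which the PDR8 allele of the laboratory strain S288c replaced that of 59A. PDR8 encodes a zinc cluster transcription factor. By the methods the replacement was selected with a loxP-kanMX4-loxP cassette set in the terminator of PDR8, and its removal is not described, so that allele and cassette cannot be told apart. Strain 59A PDR8-S288c is 1 constructed strain, and both strains had the same must, with 425 mg/l of assimilable nitrogen at pH 3.3, 1 mg/l of p-aminobenzoic acid and 14.5 mg/l of iron chloride.

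Chaperones bind unfolded or partly folded proteins and help them to fold, to be disaggregated or to be passed on for degradation. HSP70 proteins bind short hydrophobic stretches in a cycle of ATP hydrolysis that J proteins stimulate and nucleotide exchange factors reset, HSP90 acts later on near-native clients such as kinases, and the chaperonin encloses actin and tubulin in a double ring. In yeast the heat shock factor Hsf1 drives most of these genes. The general stress factors Msn2 and Msn4 add to the induction of some of them under nutrient starvation and ethanol stress, as in the last part of a wine fermentation.

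Values are log2 signals of one-color arrays, and a log2 fold change is 59A PDR8-S288c minus wild type, so that a positive value is a higher signal in 59A PDR8-S288c. The strains were compared with limma over all 6248 features, and adjusted p-values are those of Benjamini and Hochberg over the same features. Signals of different probes are not compared, since each probe has its own brightness. The array of wild type replicate 3 holds no value for 32.9% of the probes, and 11 of the 41 genes, TCP1 among them, therefore compare 3 cultures with 2. It also had the lowest array weight, 0.337 against 0.823 to 1.66 on the other 5 arrays. The transporter gene QDR2 separated the strains as labelled, at 7.57 to 7.68 in wild type against 9.71 to 9.96 in 59A PDR8-S288c, and PDR8 itself was at 7.21 and 7.26 against 6.70 to 6.77, which does not type the allele. For the mating type, the 7 a-specific genes were measured with wild type means from 6.66 to 11.4. The alpha-specific MF(ALPHA)1, MF(ALPHA)2 and STE3 were less than 1 log2 unit above the stated background of 5.3, and SAG1, which is alpha-specific as well, was at 7.19 in wild type.

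Few of the chaperone genes passed the test between the strains. At an adjusted p under 0.05 from limma, 1 of the 41 genes was higher in 59A PDR8-S288c, the chaperonin subunit gene TCP1, and 1 was lower, the heat-inducible HSP70 gene SSA4. These 2 genes are 4.88% of the 41, against 1.54% of all features called, of which 0.512% were higher and 1.02% lower. Genes of ribosomal proteins made up 47 of the 64 features in that lower share. None of the 41 passed an adjusted p of 0.01 from limma, which only 3 of all 6248 features passed. At an unadjusted p under 0.05, 4 genes were higher (TCP1, CPR7, CCT3 and HSC82), which is 9.76% against 9.99% of all features, and 5 were lower (SSA2, SSA4, SSB1, SSB2 and HSP104), which is 12.2% against 8.1%. The share of higher genes was near that of the whole array and the share of lower genes was above it, and neither difference was tested.

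The median log2 fold change of the 41 genes was 0.02, with 25 genes above 0 and 16 below. That of all features was 0.01, with 3311 above 0 and 2937 below. The values ran from −0.36 for SSA2 to 0.43 for TCP1. The 95% confidence interval of 27 genes lay wholly between −0.3 and 0.3, a smaller share than among all features (4810 of 6248). The widest bounds were −0.59, of SSA2, and 0.58, of TCP1. Among the 30 genes with a value on all 6 arrays, the 3 cultures of one strain lay wholly above the 3 of the other for 5 genes higher and 5 lower in 59A PDR8-S288c. That is 16.7% in each direction, against 13.5% higher and 11.1% lower among all features with 6 values. Among the 11 genes with 2 wild type values, 1 was wholly higher and 3 wholly lower, against 21.9% and 13.1% of all such features.

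**Figure D1:**
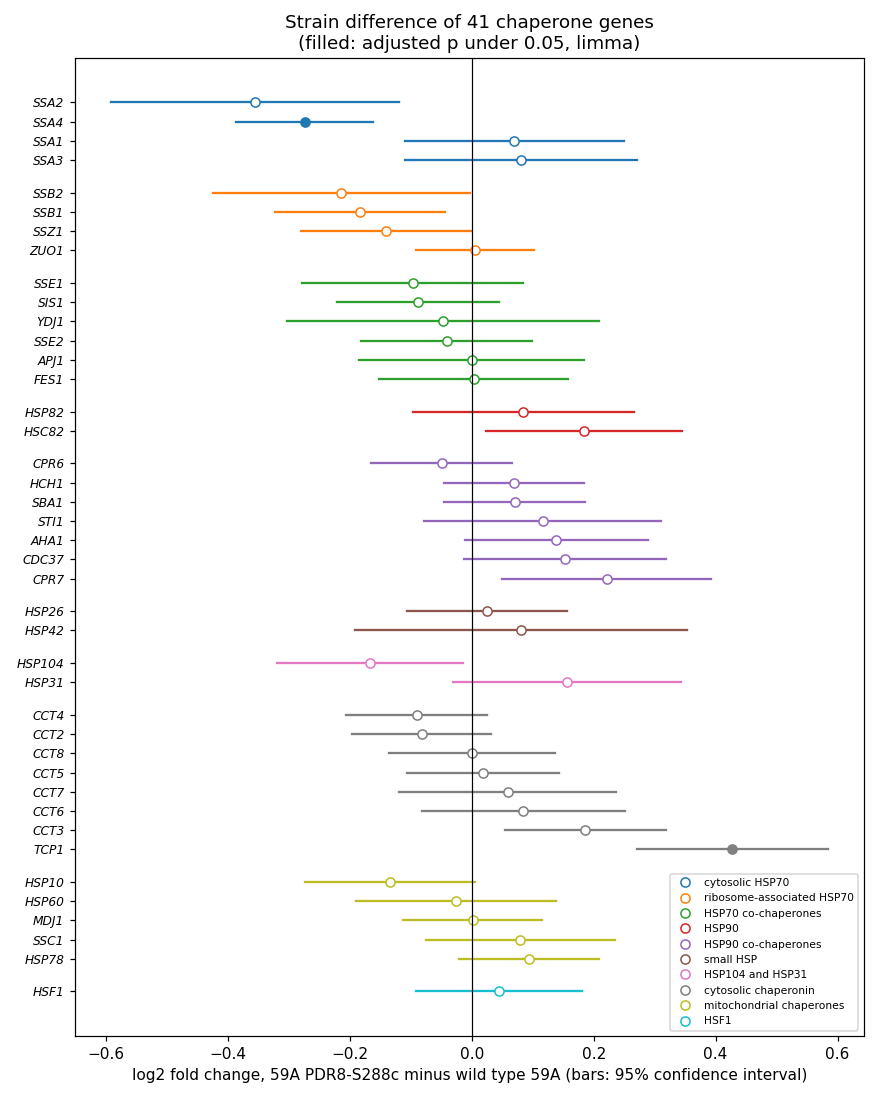
Log2 fold change (59A PDR8-S288c minus wild type 59A, x axis) of each of the 41 genes, ordered by family, with its 95% confidence interval as a bar; filled points passed an adjusted p under 0.05. Only TCP1 (0.43) and SSA4 (−0.27) are filled, and 9 of the 41 intervals exclude 0, against 1130 of those of all 6248 features.

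**Figure D2:**
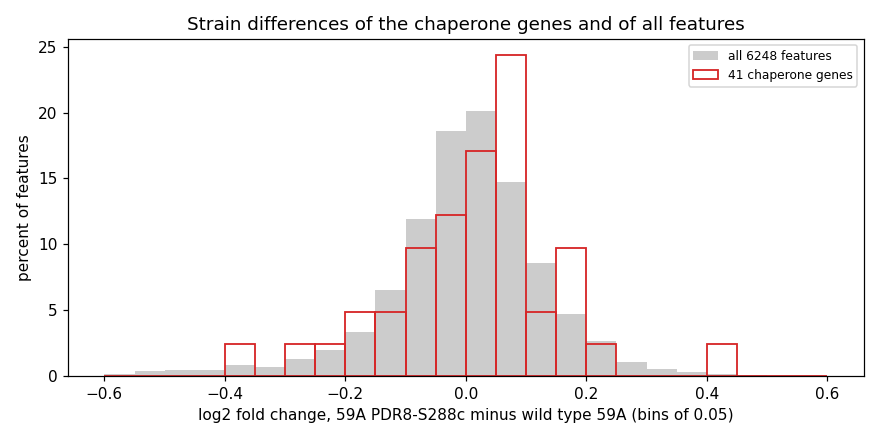
Percent of features (y axis) in each 0.05-wide bin of log2 fold change (x axis), for all 6248 features (gray) and the 41 chaperone genes (red outline); 35 features lie outside the plotted range. Both distributions are centered near 0, with medians of 0.01 and 0.02.

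The cytosolic HSP70 proteins Ssa1 to Ssa4 are the main general chaperones of the yeast cytosol, and their 4 genes had log2 fold changes on both sides of 0, with a median of −0.10. Of the 4 genes, 1 fell (SSA4), none rose and 3 did not pass the test. SSA4, locus YER103W, is nearly silent in unstressed cells and strongly induced by heat and ethanol. Its signal was 9.58, 9.61 and 9.60 in the wild type cultures 1 to 3 and 9.32, 9.26 and 9.39 in those of 59A PDR8-S288c. The wild type cultures were almost equal and the groups did not overlap, with a gap of 0.19 between them. The means were 9.60 ± 0.017 and 9.32 ± 0.067 (SD, n = 3 each), and the log2 fold change was −0.27 (SE 0.048), a ratio of 0.827, with an adjusted p of 0.042 from limma. An exact permutation test of the 6 values gave p = 0.1, which is the smallest two-sided p that 3 against 3 can give. In bulk RNA, fewer cells that express a gene and less RNA per cell cannot be told apart. Without wild type replicate 3 the log2 fold change was −0.27 with an adjusted p of 0.060 from limma, and without any of the other arrays in turn it ranged from −0.31 to −0.24 with an adjusted p of 0.064 to 0.184.

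SSA2, which is expressed at all times, had the lowest log2 fold change of all 41 genes. Its signal was 7.63, 7.98 and 7.65 in wild type against 7.30, 7.38 and 7.52 in 59A PDR8-S288c. No culture of 59A PDR8-S288c reached the lowest wild type culture, and wild type replicate 2 stood far above the other wild type cultures. The log2 fold change was −0.36 (SE 0.101) with an adjusted p of 0.125 from limma, so that the larger value had the larger spread and did not pass. SSA1, the other constitutive gene, gave 11.73, 11.76 and 11.97 in wild type against 11.92, 11.96 and 11.79 in 59A PDR8-S288c, with overlap and a log2 fold change of 0.07. SSA3, which like SSA4 is induced by stress and on entry into stationary phase, gave 10.36 and 10.30 in wild type against 10.30, 10.38 and 10.55 in 59A PDR8-S288c, again with overlap.

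The genes of each pair are paralogs, some of them near copies such as SSB1 and SSB2, and how well the probes separate them was not examined here. The difference between paired genes was taken within each array, as 6 comparisons with the pairs and subunits named later, and p-values were adjusted over these 6. SSA4 minus SSA3 was lower in 59A PDR8-S288c by 0.35 log2 units, with no overlap between 3 and 2 cultures (exact permutation test, p = 0.2, adjusted 0.3, where 0.2 is the smallest p of 3 against 2). SSA2 minus SSA1 was lower by 0.43, but its groups overlapped (exact permutation test, 3 against 3, p = 0.2, adjusted 0.3). SSB2 minus SSB1 (−0.03) and SSE2 minus SSE1 (0.06) overlapped as well. With these numbers of cultures no pair could have passed 0.05, so that the tests say nothing on whether the responses differed.

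The ribosome-associated HSP70 proteins Ssb1 and Ssb2 bind nascent chains at the ribosome exit, with Ssz1 and the J protein Zuo1 as their ribosome-bound partner complex. None of these 4 genes passed the test, and 3 of the 4 had a log2 fold change below 0. SSB1 gave 8.87 and 8.85 in wild type against 8.75, 8.62 and 8.65 in 59A PDR8-S288c, and SSB2 gave 8.82 and 8.87 against 8.79, 8.50 and 8.60. In both genes every culture of 59A PDR8-S288c lay below both wild type cultures, and replicate 1 was the highest of the 3. The log2 fold changes were −0.18 (SE 0.058, limma adjusted p = 0.171) for SSB1 and −0.21 (SE 0.088, limma adjusted p = 0.273) for SSB2. SSZ1 was −0.14 with no overlap and a gap of 0.014, whereas ZUO1, its partner, was the most even gene of the 41, with all 6 arrays between 11.01 and 11.09. The 135 genes of ribosomal proteins, measured beside them, had a median log2 fold change of −0.38. Median deviations from the gene's mean were taken on each array over the 3 cytosolic HSP70 and 87 ribosomal protein genes with 6 values. Both medians ordered the 6 arrays alike, highest in wild type replicate 2 (0.15 and 0.28) and lowest in 59A PDR8-S288c replicate 2 (−0.20 and −0.26). Of the 3 HSP70 genes, SSA4 alone had that order, and SSA2 was lowest in 59A PDR8-S288c replicate 1. SSA1 went against it, with a higher signal in 59A PDR8-S288c replicate 2 (11.96) than in wild type replicate 2 (11.76). The strain difference is itself part of that order, and a shared cause was not tested.

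The HSP70 co-chaperones hold the J proteins Ydj1, Sis1 and Apj1, the exchange factors Sse1 and Sse2, which are distant HSP70 relatives, and the exchange factor Fes1. None of the 6 genes passed the test. Their log2 fold changes lay between −0.10 (SSE1) and 0.00 (FES1), and 5 of the 6 were below 0. SSE1 gave 9.59, 9.59 and 9.79 in wild type against 9.69, 9.49 and 9.49 in 59A PDR8-S288c, and SSE2 gave 10.17, 10.29 and 10.36 against 10.16, 10.28 and 10.25. In both genes the strains overlapped and the highest array was wild type replicate 3. YDJ1 had the largest spread within strains of the 41 genes (SD 0.173), with wild type cultures from 10.38 to 10.79 that enclosed all 3 of 59A PDR8-S288c. SIS1 was the contrary case: the cultures of 59A PDR8-S288c lay within 10.57 to 10.58, just below the lowest wild type culture at 10.59. Over the 14 genes of the HSP70 system the median log2 fold change was −0.07, with 10 genes below 0.

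**Figure D3:**
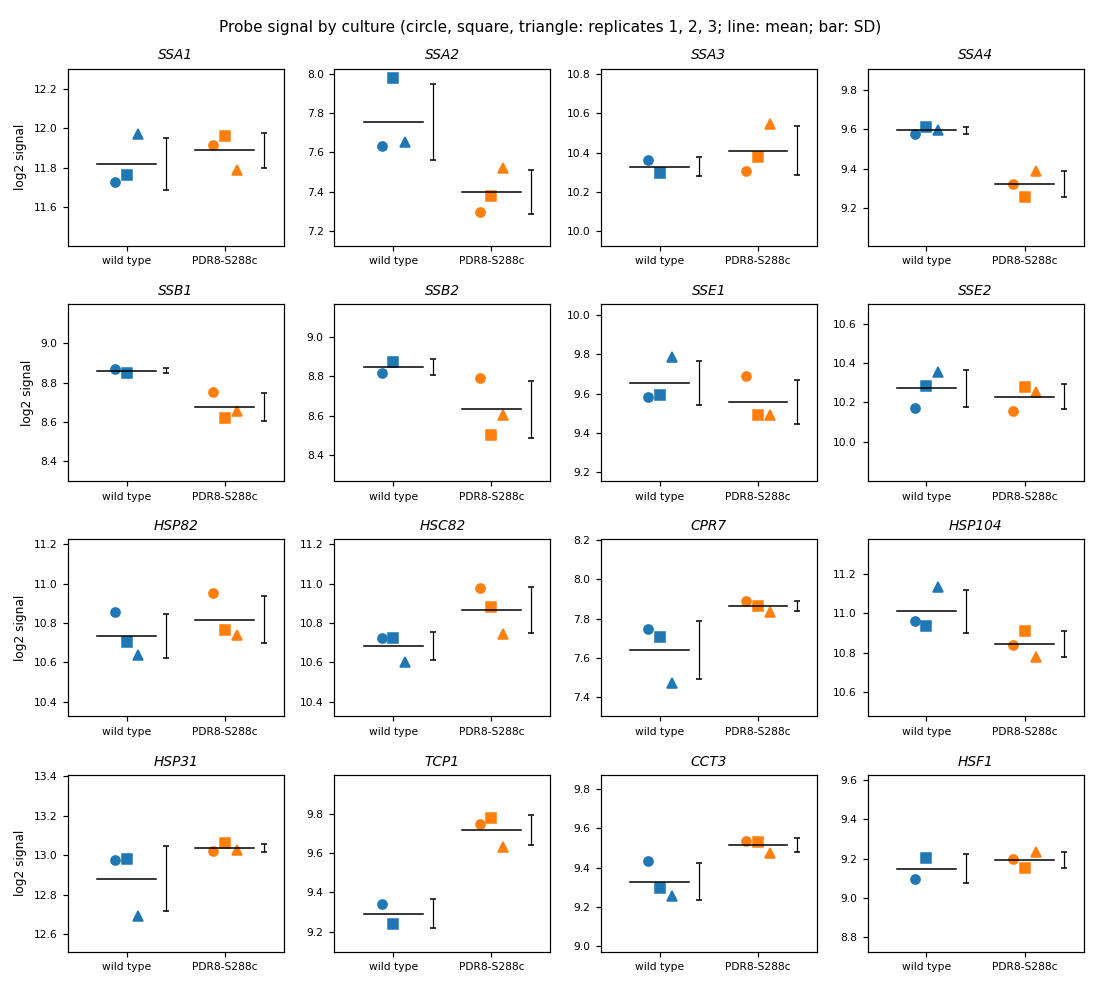
Log2 probe signal (y axis, with the same span in each panel) of 16 chaperone genes in each culture of wild type and 59A PDR8-S288c, with the mean as a line and the SD as a bar; circles, squares and triangles are replicates 1, 2 and 3. TCP1 and SSA4 show the widest gaps between the strains (0.29 and 0.19), and SSA1, SSA3, SSE1, SSE2, HSP82 and HSF1 overlap between the strains.

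HSP90 is encoded by HSC82, which is expressed at all times, and by the heat-inducible HSP82. Neither passed the test. HSC82 gave 10.73, 10.72 and 10.60 in wild type against 10.98, 10.88 and 10.75 in 59A PDR8-S288c, so that the groups met without overlap, with a gap of 0.019. Its log2 fold change was 0.18 (SE 0.069, limma adjusted p = 0.222). HSP82 gave 10.85, 10.71 and 10.64 against 10.95, 10.76 and 10.74, with overlap and a log2 fold change of 0.08. Within each strain both genes were highest in replicate 1 and lowest in replicate 3. Within arrays, HSC82 minus HSP82 was 0.10 log2 units higher in 59A PDR8-S288c, with overlapping groups (exact permutation test of 3 against 3, p = 0.2, adjusted 0.3).

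The 7 HSP90 co-chaperones act at different steps of its cycle. Sti1 hands clients over from HSP70, Cdc37 brings kinases, Cpr6 and Cpr7 are cyclophilins that bind the HSP90 tail, Sba1 is the p23 protein that holds the closed state, and Aha1 and Hch1 stimulate ATP hydrolysis. None passed the test, and 6 of the 7 had a log2 fold change above 0, with a median of 0.12. CPR7 had the largest, with 7.75, 7.71 and 7.47 in wild type against 7.89, 7.87 and 7.84 in 59A PDR8-S288c. The groups did not overlap, and the log2 fold change was 0.22 (SE 0.074, limma adjusted p = 0.176), or 0.14 without the low wild type replicate 3. CDC37 (0.15), AHA1 (0.14) and STI1 (0.12) followed, each with overlap, and the paralog of CPR7, CPR6, was the 1 gene below 0, at −0.05. Over the 9 genes of HSP90 and its co-chaperones the median log2 fold change was 0.12 and 8 were above 0, against 10 of 14 below 0 in the HSP70 system. Of all features, 53.0% were above 0. The 5 further HSP90 co-chaperones of the other lists (CNS1, PPT1, SGT1, TAH1 and PIH1) had a median of −0.01, with 2 above 0 and 3 below. These counts describe genes that share arrays, and the difference between the systems was not tested.

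The disaggregase Hsp104 extracts proteins from aggregates together with HSP70, and Hsp31 is a stress-induced chaperone of the DJ-1 family with methylglyoxalase activity. HSP104 gave 10.96, 10.94 and 11.13 in wild type against 10.84, 10.91 and 10.78 in 59A PDR8-S288c, lower without overlap by a gap of 0.026. Its log2 fold change was −0.17 (SE 0.065, limma adjusted p = 0.239), or −0.11 without wild type replicate 3, the highest of the 6 arrays. HSP31 gave 12.97, 12.98 and 12.69 against 13.02, 13.06 and 13.03, higher without overlap by a gap of 0.044. Its log2 fold change was 0.16 (limma adjusted p = 0.350) and 0.06 without the low wild type replicate 3. The small heat shock proteins Hsp26 and Hsp42 hold unfolded proteins without ATP. HSP26 was between 15.31 and 15.49 on all 6 arrays, near the scale's upper limit of 16, where a rise could be compressed, and HSP42 was between 11.82 and 12.14 on 5 arrays. Both overlapped between strains, with log2 fold changes of 0.02 and 0.08.

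The cytosolic chaperonin, also called TRiC or CCT, is a double ring in which each of 8 different subunits occupies a fixed place, and its main clients are actin and tubulin. Of the 8 subunit genes, 1 rose (TCP1), none fell and 7 did not pass the test. TCP1, locus YDR212W, encodes the alpha subunit. Its signal was 9.34 and 9.24 in the wild type cultures 1 and 2, had no value in the third, and was 9.75, 9.78 and 9.63 in 59A PDR8-S288c. The gap of 0.29 between the groups was wider than the range within either. The means were 9.29 ± 0.073 (SD, n = 2) and 9.72 ± 0.076 (SD, n = 3), and the log2 fold change was 0.43 (SE 0.065) with an adjusted p of 0.038 from limma. Without any of the 5 arrays that measured it in turn, the log2 fold change was 0.38 to 0.48 with an adjusted p of 0.055 to 0.184 from limma. Each of these steps lost the call, and where 1 wild type culture was left, it was assumed to vary like the others. An exact permutation test of the 5 values gave p = 0.2, the smallest two-sided p that 3 against 2 can give.

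CCT3, the gamma subunit, was next, with 9.43, 9.30 and 9.26 in wild type against 9.54, 9.53 and 9.48 in 59A PDR8-S288c. It was higher without overlap by a gap of 0.041, with a log2 fold change of 0.19 (SE 0.057) and an adjusted p of 0.146 from limma. The other 6 subunit genes had log2 fold changes from −0.09 (CCT4) to 0.08 (CCT6), and their groups overlapped. TCP1 minus the median of the other 7 subunits, taken within each array, was 0.28 log2 units higher in 59A PDR8-S288c without overlap (exact permutation test, p = 0.2, adjusted 0.3). Protein levels were not measured.

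Of the mitochondrial chaperones, Ssc1 is the matrix HSP70 that drives protein import, Mdj1 is its J protein, Hsp60 and Hsp10 form the matrix chaperonin, and Hsp78 is the matrix counterpart of Hsp104. None of the 5 genes passed the test, and log2 fold changes lay between −0.13 (HSP10) and 0.09 (HSP78). HSP10 was 10.97 and 11.08 in wild type against 10.84, 10.93 and 10.90, whereas its partner HSP60 differed by −0.03 with overlap. HSP60 lies on chromosome XII as does PDR8, with 8 annotated genes between them. HSF1, whose product regulates most of these genes, gave 9.10 and 9.20 in wild type against 9.20, 9.15 and 9.23 in 59A PDR8-S288c, with overlap and a log2 fold change of 0.04 (SE 0.057, limma adjusted p = 0.728). The RNA of HSF1 does not measure the activity of the factor.

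Differences between cultures of one strain were of the same size as many of the differences between strains. The median SD within strains was 0.079 log2 units over the 41 genes and 0.068 over all features. The log2 fold change was under 0.1 in size for 26 of the 41, a share near that of all features (4081 of 6248). Of the 30 genes with 6 values, 9 were highest and 9 lowest on the array of wild type replicate 3, and 11 were highest on that of 59A PDR8-S288c replicate 1. These counts were not taken over all features, so that a trait of the arrays and one of these genes cannot be told apart. On wild type replicate 3 the 4 HSP70 co-chaperones with 6 values were high (median deviation from the gene's mean 0.17) and both HSP90 genes were low (−0.16). On 59A PDR8-S288c replicate 1 both HSP90 genes were high (0.19). Without wild type replicate 3, the median log2 fold change of the HSP70 co-chaperones went from −0.04 to 0.00016 and that of HSP90 from 0.13 to 0.09, and without 59A PDR8-S288c replicate 1 that of HSP90 was 0.07.

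**Figure D4:**
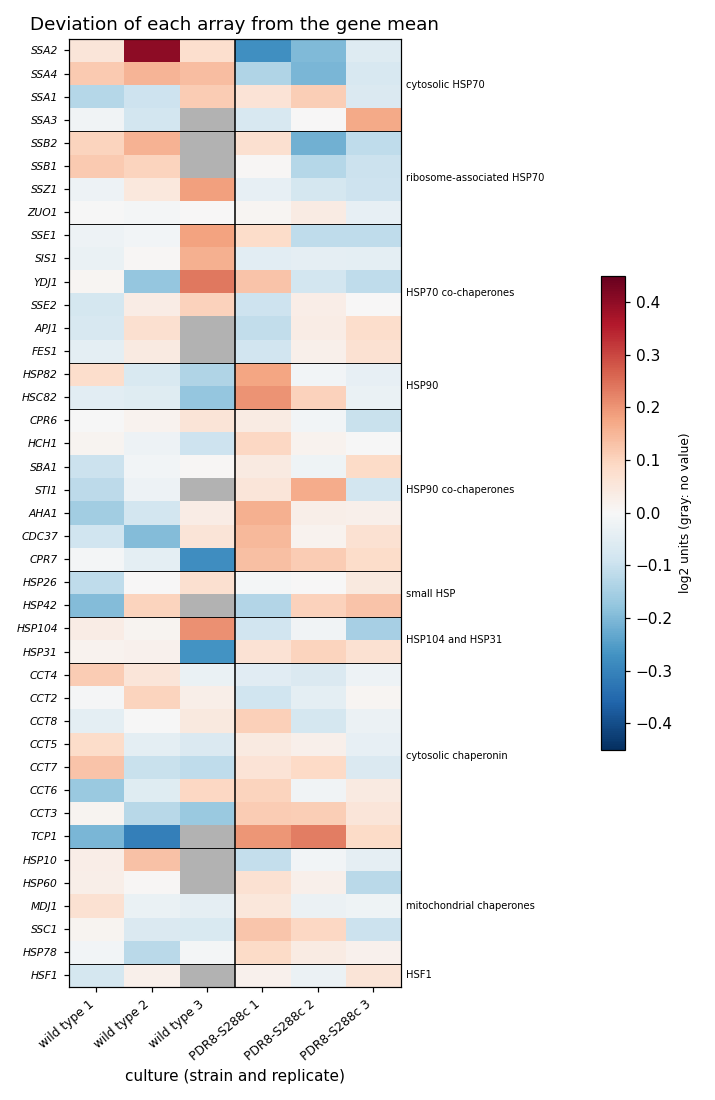
Deviation of each array (columns, 3 cultures per strain) from the gene's mean over all arrays, in log2 units, for the 41 genes (rows, by family); gray cells have no value. Red SSA4 cells left of the line and blue ones right of it show the lower gene and TCP1 shows the reverse. The column of wild type replicate 3 holds 9 of the highest and 9 of the lowest values of the 30 complete genes, counts not taken over all features.

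Other genes of protein folding and heat shock were read from 8 lists. The lists were named prefoldin, nascent-chain complex, other J proteins, other HSP90 co-chaperones, other mitochondrial chaperones, other heat shock and sorting factors, cyclophilins, and regulators. Of the 49 genes listed, 48 were measured. At an adjusted p under 0.05, 1 was higher and none was lower, which is 2.08% against 1.54% of all features. At an unadjusted p under 0.05, 6 were higher (12.5% against 9.99%) and 8 were lower (16.7% against 8.1%), and the median log2 fold change was 0.00. The gene that passed was MSN4, which encodes a general stress transcription factor, with 9.87, 9.74 and 9.79 in wild type against 10.19, 10.08 and 10.16 in 59A PDR8-S288c. The groups were well apart, with means of 9.80 ± 0.063 and 10.14 ± 0.061 (SD, n = 3 each) and a log2 fold change of 0.34 (SE 0.053, limma adjusted p = 0.035). It lost the call without any 1 of the 6 arrays, with an adjusted p of 0.051 to 0.169.

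HSP12, which encodes a small membrane-associated stress protein and is a classical target of Msn2 and Msn4, had the largest difference of the 48 genes. It gave 8.60 and 8.58 in wild type against 7.82, 8.16 and 8.16 in 59A PDR8-S288c, with a log2 fold change of −0.54 (SE 0.109, limma adjusted p = 0.070). BTN2, a sorting factor for misfolded proteins and a target of Hsf1, gave 7.37, 7.53 and 7.29 against 7.11, 7.16 and 7.10, with a log2 fold change of −0.27 (SE 0.066, limma adjusted p = 0.086). In both genes all cultures of 59A PDR8-S288c lay below those of wild type, and neither passed the test. Both are named for the size of their change. MSN2, the partner of MSN4, differed by 0.10 with overlap.

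The 2 calls among the 41 genes depended on the arrays and on the fit. The wild type lay on subarrays 1, 2 and 8 of the slide and 59A PDR8-S288c on 5, 6 and 7. When the part of the slide entered the fit as a covariate, the log2 fold changes kept their sign, at 0.38 for TCP1 and −0.26 for SSA4, and neither passed (adjusted p = 0.326 and 0.397, limma). That fit compares strains through 1 wild type culture, replicate 1.

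**Figure D5:**
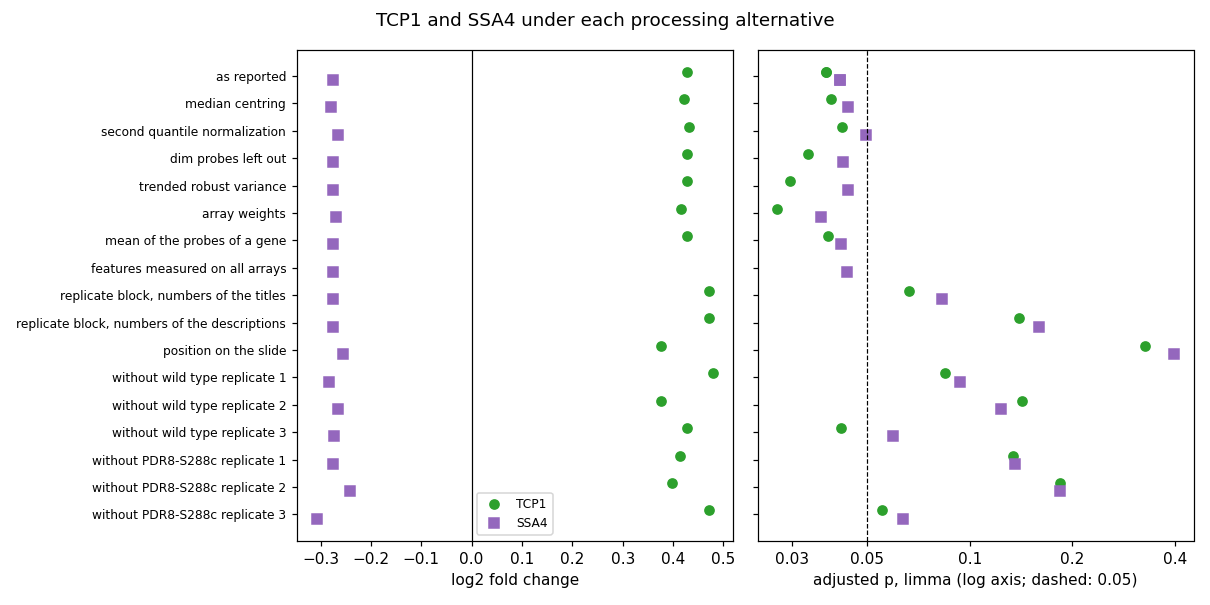
Log2 fold change (left, x axis) and adjusted p from limma (right, log axis, dashed line at 0.05) of TCP1 (circles) and SSA4 (squares) as reported and under each of 16 processing alternatives (rows; TCP1 has no value where all 6 arrays were required). The sign never changed, from 0.38 to 0.48 for TCP1 and −0.31 to −0.24 for SSA4, while the adjusted p ran from 0.027 to 0.326 and from 0.037 to 0.397.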

How the data were processed

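Per the labels, the material was total RNA and the dye was Cy3, and by the methods it was cRNA that carried the dye. The authors took median spot intensities, applied quantile normalization (R 2.13.1, limma) and deposited log2 values, which were used unscaled. By the methods, quantiles were taken over all arrays of the study at once, which would include arrays not analysed here, but these 6 are not named there. Of 6271 probes, 5220 have a gene symbol, and 22 genes with more than 1 probe were represented by the brightest. Strain differences were fitted by lmFit and eBayes (limma 3.58.1, R 4.3.3), without trend or block. The fit was run on simulated data with independent noise and planted differences larger than those of TCP1 and SSA4, which does not cover differences of their size. The labels call the cultures biological replicates. The 41 genes, the lists and the tests were chosen with earlier results of these data known, and the differences within pairs were added after the values were seen. Named in full were the genes past an adjusted p of 0.05, the 10 largest changes, HSF1, the paralog pairs and, of other chaperone genes, those past the threshold and the 3 largest. Alternatives changed the scaling (median centring, quantiles applied again), the features (without dim probes, probes averaged, complete on all arrays), the variance (trended and robust, weighted arrays), the terms (replicate block, part of the slide) and the arrays (each left out). Plots used matplotlib 3.10.9.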

Additional observations from a re-analysis of the deposited data

How the results depend on the processing

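Of 16 alternatives, 6 kept 2 chaperone genes past an adjusted p of 0.05 (limma), TCP1 and SSA4. Some of these could not alter the values of the 41 genes. Each gene has 1 probe and none is dim, so that averaging probes or leaving out dim probes left their log2 fold changes as reported. The trended robust variance did so as well. Those alternatives could change only the variance and the adjustment, and are weak tests of the 2 calls. With features on all arrays 1 was left, since TCP1 has no value there. With the part of the slide in the fit, 0 members and 0 other chaperone genes passed, and 4 members had an unadjusted p under 0.05 (9 as reported). Without 1 array in turn, 0 to 1 members and 0 to 1 other chaperone genes passed. The 1 member was TCP1 and the 1 other gene was EGD2, both without wild type replicate 3. TCP1 has no value on that array, so that leaving it out removed none of its values and did not test its call. Of the other chaperone genes, 2 passed with a trended robust variance (MSN4 and HSP12) and 4 with array weights (these, BTN2 and EGD1).

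The replicate numbers differ between titles and descriptions for 2 cultures of 59A PDR8-S288c. Deviations of same-numbered cultures correlated at 0.17, 0.34 and −0.43 by the titles and at −0.05, −0.69 and −0.43 by the descriptions. The highest correlations joined cultures of unlike number, by title 0.62 (wild type 2 with 59A PDR8-S288c 3) and 0.49 (wild type 3 with 59A PDR8-S288c 1). With 3 cultures per strain, whose deviations sum to 0, these values do not settle whether cultures were paired. With either number as a replicate block, 0 members passed (the lowest adjusted p was 0.066 and 0.139, limma) and 0 other chaperone genes passed.

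The median log2 fold change of the members stayed between −0.01 and 0.04 under all 16 alternatives. By family, the median ran from −0.27 (features on all arrays, without SSA3) to −0.08 for cytosolic HSP70, from −0.19 to −0.07 (features on all arrays) for ribosome-associated HSP70, from −0.08 to 0.02 for the HSP70 co-chaperones, from 0.05 to 0.19 for HSP90, from 0.09 to 0.16 for its co-chaperones, from −0.05 (without wild type replicate 1) to 0.18 (part of the slide) for small HSP and from −0.04 to 0.08 (features on all arrays) for the mitochondrial chaperones. SSE2 was at 0.0015 with array weights, at 0.057 with the part of the slide in the fit and between −0.091 and 0.00066 without 1 array, HSP82 was at −0.037 with the part of the slide, and HSF1 was between −0.0069 and 0.095 without 1 array. These are changes of sign near 0, and none passed the test. The small number of arrays limits the precision.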
